A study of Mus musculus with 2 samples.

Results

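The genes described here are 10 coinhibitory and costimulatory receptors and ligands of the immunoglobulin superfamily, Ctla4, Pdcd1, Lag3, Havcr2, Icos, Btla, Vsir, Cd200, Cd200r1 and Lilrb4a. They were chosen by name among the probe sets that the platform annotation pairs with a single gene symbol. All 10 had a value, from 14 probe sets, among 17097 genes in all. Their transcripts were compared between CD4 T cells activated with OX40L-Tg antigen-presenting cells (APC) and with wild type (Wt) APC, on 1 HT MG-430 PM array each. The T cells of both groups were naive Foxp3-negative CD4 cells of 6-week-old C57/Bl6 mice with a Foxp3-eGFP reporter, were stimulated for 48 hours with soluble anti-CD3 antibody, and were sorted again as living CD4 cells. In both groups the APC were splenocytes depleted of CD3-positive cells and treated with mitomycin C at 50 ug/ml so that they could not divide. The only difference between the groups that the labels name is whether those APC came from B6 mice or carried the OX40L transgene. The promoter of the transgene is not named. Nor do the labels say how many mice or cultures went into each array.

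Receptors of this family set the strength of T cell activation beside the T cell receptor. CD28 and ICOS add a stimulatory signal through phosphatidylinositol 3-kinase, whereas CTLA-4, PD-1, BTLA and their relatives restrain signalling, several of them through tyrosine motifs in their tails that recruit phosphatases. Many of these inhibitory receptors are themselves induced by activation, so that their transcripts mark activated as well as restrained cells. OX40, the receptor of OX40L, belongs to the TNF receptor superfamily and is a separate costimulator.

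Both arrays had a median intensity of 14.7 units and correlated with r = 0.993 on the log2 scale over 45141 probe sets. Values are RMA intensities, and differences are log2(OX40L-Tg APC) minus log2(Wt APC). A gene was above the floor if it reached the median of all probe sets on at least 1 array, and 10541 genes were. Background was set per array from 46 genes that belong to other organs. Their 95th percentile was 56.2 units for Wt APC and 47.8 units for OX40L-Tg APC. With 1 array per group there is no replicate check, so no difference has an error or a test, and a size of 2-fold was used as a descriptive threshold. All 11 T cell markers with a value were above background on both arrays. Foxp3 was below it on both, as were the 4 adipocyte genes checked because the labels' extraction protocol speaks of adipose tissue. Foxp3 does not stand for its list. Of 9 regulatory T cell markers with a value, 5 were above background with Wt APC and 6 with OX40L-Tg APC. Their sums were 7309 and 9508 units. Of the 7 above the floor, 4 were higher with OX40L-Tg APC, with a median difference of 0.19. In bulk RNA, fewer cells of a type and less RNA per cell cannot be told apart.

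Some of the receptors were higher with OX40L-Tg APC and others were lower, most of the latter by a small amount. Lilrb4a and Cd200 were at least 2-fold higher, as was Cd200r1 by measured values at or below background. Btla was 1.62-fold higher, and Vsir was 2.00-fold lower. Ctla4, Icos, Lag3 and Pdcd1 were lower by less than 1.5-fold. Havcr2 was below the floor. Of the 9 receptors above the floor, 3 had a value 2-fold higher or more, compared with 1.56% of the 10541 genes that were. A value 2-fold lower or more was seen in 1, compared with 1.17% of all genes. Higher values of any size were seen in 4 of the 9, compared with 54.0% of all genes. The median difference of the 9 was -0.33, against 0.02 over all 10541 genes. Because these genes were chosen with results of the arrays known, those counts are a description only.

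The promoters of Cd200 and Btla, which lie next to each other and were both higher, and of Vsir, the member with the largest negative difference, are shown as the 250 bases before the RefSeq start site in GRCm38.p6, 5′ to 3′. Capitals mark matches to any of 7 searched motifs on either strand. For AP-1 the letters searched were TGANTCA. For NFAT they were TGGAAA, and for ETS factors AGGAAGT. The GC box was searched as GGGCGG, and the TATA box as TATAAA. For GATA factors the search used AGATAA, and for the cyclic AMP response element TGACGT. No motif is a stretch of another.
Cd200, chr16:45409054-45409303, reverse strand: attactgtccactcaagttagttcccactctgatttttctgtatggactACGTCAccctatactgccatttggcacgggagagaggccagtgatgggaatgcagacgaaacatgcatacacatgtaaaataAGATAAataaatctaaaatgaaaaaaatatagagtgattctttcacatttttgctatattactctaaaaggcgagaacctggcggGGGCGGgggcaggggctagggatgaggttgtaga
Btla, chr16:45224087-45224336, forward strand: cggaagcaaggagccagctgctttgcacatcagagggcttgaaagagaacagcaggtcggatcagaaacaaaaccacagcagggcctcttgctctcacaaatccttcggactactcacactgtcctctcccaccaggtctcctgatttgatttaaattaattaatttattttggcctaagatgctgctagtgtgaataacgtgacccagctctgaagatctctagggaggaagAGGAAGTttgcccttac
Vsir, chr10:60346601-60346850, forward strand: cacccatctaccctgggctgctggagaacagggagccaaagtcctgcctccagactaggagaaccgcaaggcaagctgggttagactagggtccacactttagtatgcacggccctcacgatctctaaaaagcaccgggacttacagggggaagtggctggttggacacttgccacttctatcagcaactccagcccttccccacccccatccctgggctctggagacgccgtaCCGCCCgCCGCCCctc
The Cd200 window held 1 GC box, 1 GATA and 1 cyclic AMP response element match, the Btla window 1 ETS match, and the Vsir window 2 GC box matches. Of 32851 RefSeq windows of the same length, 32.7% held a GC box, 9.99% a GATA match, 6.47% a cyclic AMP response element and 7.69% an ETS match. Across these windows the GC box was the only shared motif, in Cd200 and Vsir, genes that differed in opposite directions. AP-1, for which 6.75% of windows had a match, and NFAT, with 18.6%, are known partners in activated T cells. Among the 6 members with a window, AP-1 letters were found in Havcr2 and NFAT letters in Ctla4. GC content was 42.4% for Cd200, 47.2% for Btla and 60.4% for Vsir, against a median of 52.4%. A match is a description of the letters and shows no binding.

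**Figure D1:**
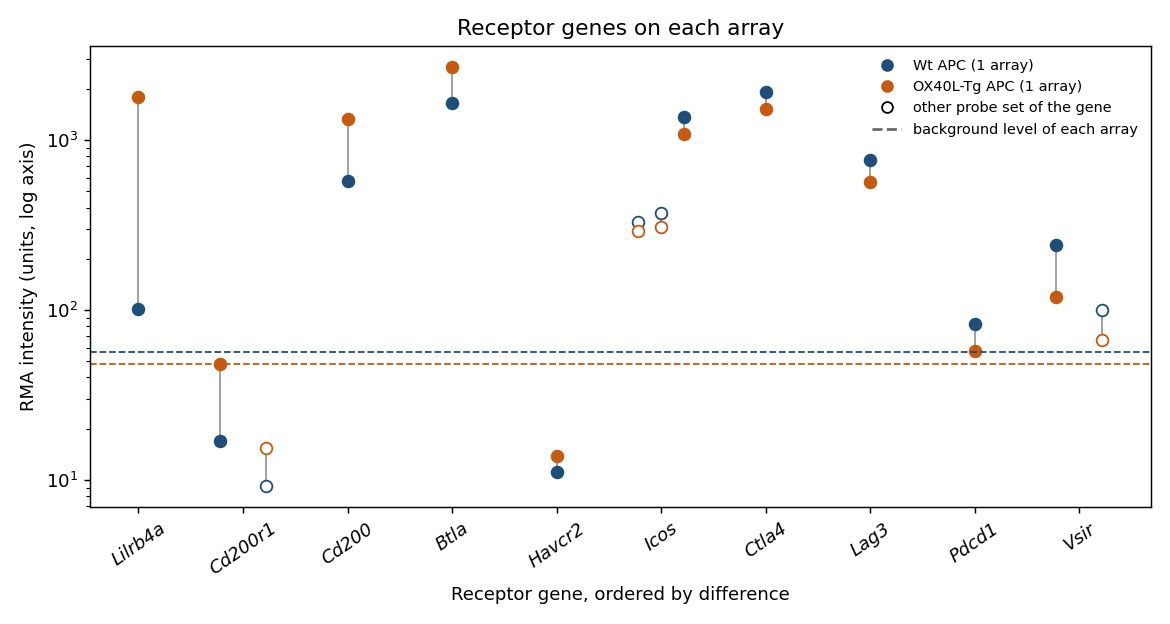
RMA intensity of each receptor gene on the Wt APC array (blue) and on the OX40L-Tg APC array (orange), on a log axis, 1 array per group and no error bars. Filled points are the probe set that stands for the gene, open points its other probe sets, and dashed lines the background level of each array; Lilrb4a spans 102 to 1802 units, and Havcr2 lies below both lines.

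Lilrb4a encodes an inhibitory receptor of the immunoglobulin superfamily, known as gp49B, that is best known from mast cells and myeloid cells and carries inhibitory tyrosine motifs. Its probe set 1420394_PM_s_at had an intensity of 102 with Wt APC and of 1802 with OX40L-Tg APC, a difference of 4.15 or 17.7-fold. Both values were above background, and the difference was the 5th highest of 10541 genes. The suffix of this probe set marks it as shared between transcripts. Lilr4b lies next to Lilrb4a in gene order on chromosome 10, with 0 protein-coding genes between them, and is also known as Gp49a. No listed probe set was paired with Lilr4b, so the signal cannot be assigned to Lilrb4a alone.

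Because Lilrb4a is best known from myeloid and mast cells, the markers of those cells were read on the same arrays. Of 11 macrophage and monocyte markers with a value, 0 were above background on either array, and their summed intensity was 131 units with Wt APC against 148 with OX40L-Tg APC. The 3 of them above the floor, Cd68, Cd14 and Fcgr1, were all higher, with a median of 0.42. The brightest, Cd68, read 20.5 and 29.0 units, and the defining markers Adgre1, Csf1r and Lyz2 read between 7.40 and 14.0 units. Of 6 neutrophil, mast cell and basophil markers, 0 were above background, and their sums were 53.3 and 52.0 units. Of 9 dendritic cell markers, 3 were above background with Wt APC and 4 with OX40L-Tg APC, with sums of 1304 and 2169 units. Of the 7 above the floor, 6 were higher with OX40L-Tg APC, with a median difference of 0.52. Batf3, which activated T cells also express, was at 95.1 and 574 units, and without it the sums were 1209 and 1595 units. The chemokine genes Ccl17 and Ccl22 differed by 1.44 and 0.56, and Itgax, Xcr1 and Cd209a were below background on both arrays. The part of dendritic cells in the Lilrb4a value was not tested.

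Cd200 encodes a membrane glycoprotein that is the ligand of the inhibitory receptor CD200R1 and is carried by activated T cells and B cells. Its probe set 1448788_PM_at went from 572 units with Wt APC to 1332 with OX40L-Tg APC, a difference of 1.22 or 2.33-fold. It is the only probe set of the gene, and both values were above background. The receptor of CD200, Cd200r1, is known from myeloid cells and from some T helper cells, where it passes an inhibitory signal through DOK adaptors. Its main probe set, 1422191_PM_at, read 17.0 and 48.03 units, a difference of 1.5. The Wt APC value was below background and the OX40L-Tg APC value stood at the background level, so no fold can be given. Its other probe set read 9.20 and 15.5 units, below background on both arrays, with a difference of 0.75. On the log2(value + 16) scale, which damps low intensities, the main probe set differed by 0.96, short of 2-fold. The ligand of this pair was thus measured above background on both arrays, whereas its receptor was higher in both probe sets but at or below the background level.

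Btla encodes an inhibitory receptor of T and B cells that binds the TNF receptor family member HVEM, encoded by Tnfrsf14. Probe set 1455656_PM_at had 1658 units with Wt APC against 2692 with OX40L-Tg APC, a difference of 0.70, which is 1.62-fold. Differences of 1.5-fold or more in this direction were seen in 3.85% of all genes. Btla was the 303rd highest of the 10541 genes.

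Cd200 and Btla are also transcribed in B cells, and B cell markers were higher on the same array. Of 12 B cell markers with a value, 6 were above background on each array, and their intensities summed to 1093 units with Wt APC against 1628 with OX40L-Tg APC. The median difference of the 9 above the floor was 0.25, and 8 of them were higher on the OX40L-Tg APC array. Fcer2a, which encodes CD23, had the largest of these differences at 1.00, and Pax5, Cr2 and Vpreb3 were below background on both arrays. Of 9 MHC class II genes, 7 of the 8 above the floor were higher, with a median of 0.32. The part of these cells in the Cd200 and Btla values was not tested.

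Ctla4, whose product outcompetes CD28 for the ligands CD80 and CD86, had 1927 units with Wt APC against 1527 with OX40L-Tg APC, a difference of -0.34. Icos, the inducible costimulator that supports follicular helper T cells, read 1362 and 1082 units in the probe set that stands for it. Its 3 probe sets differed by -0.33, -0.27 and -0.17, so all of them were slightly lower. Lag3, which encodes an inhibitory receptor for MHC class II, read 760 and 567 units, a difference of -0.42. Pdcd1, which encodes PD-1, read 82.9 and 57.2 units, a difference of -0.53, with both values close to background. None of these 4 genes reached 1.5-fold, a size at which 3.36% of genes above the floor were lower.

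T cell markers as a whole were also lower, by a median close to the differences of Ctla4 and Icos and smaller than those of Lag3 and Pdcd1. The summed intensity of 11 T cell markers was 27214 units with Wt APC against 23226 with OX40L-Tg APC, a log2 ratio of -0.23, and the median difference was -0.27. Cd3e differed by -0.67 and Cd4 by -0.30, while Cd2 differed by 0.09. The differences of Ctla4, Icos, Lag3 and Pdcd1 lay within the range of these markers. For Lag3 and Pdcd1 that rests on Cd3e and Cd3g alone, the latter at -0.62. Of the marker lists, the erythroid list had the largest shift, with sums of 1190 and 232 units over 3 genes, nearly all of it from the globin gene Hba-a1 at 1161 and 207 units. Whether the shift of any of these markers has a part in the receptor values was not tested.

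Vsir encodes VISTA, an inhibitory checkpoint protein that is present on naive T cells and on myeloid cells. Its main probe set, 1416619_PM_at, had 239 units with Wt APC against 120 with OX40L-Tg APC, a difference of -1.0 that falls at the 2-fold threshold. It was the 123rd lowest of the 10541 genes, the last gene to reach that size. Its other probe set read 99.9 and 66.6 units, a difference of -0.58, which is close to 1.5-fold, so the direction was shared but the size was not. With the mean of both probe sets the difference was -0.79, short of 2-fold. The ranges between probe sets of a gene had a median of 0.16 over 4195 genes with several, and a 95th percentile of 0.59. The probe sets of Icos spanned a range close to that median, those of Vsir lay further apart, and those of Cd200r1 exceeded the 95th percentile.

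Havcr2 encodes TIM-3, an inhibitory receptor of terminally differentiated Th1 cells and exhausted T cells. Its values of 11.1 units with Wt APC and 13.8 with OX40L-Tg APC were below the floor and the background level on both arrays. A change in Havcr2 could not be detected at this intensity.

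**Figure D2:**
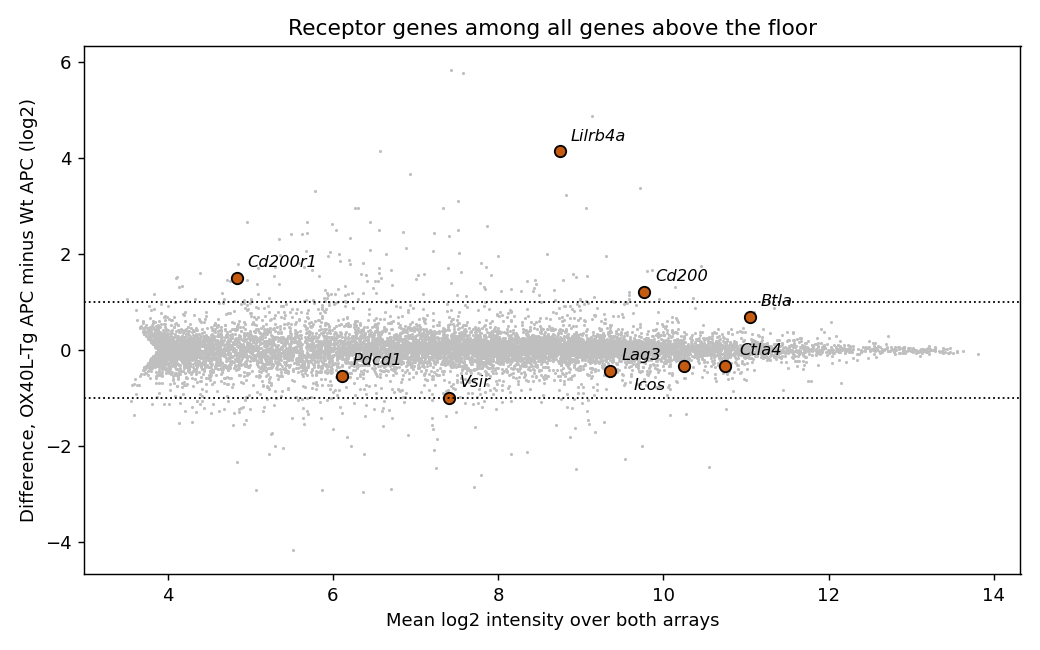
Difference between the arrays (OX40L-Tg APC minus Wt APC, log2) against the mean log2 intensity for the 10541 genes above the floor (grey), with the 9 receptor genes above the floor in orange and dotted lines at 2-fold. Lilrb4a at 4.15 stands apart from nearly all genes, Cd200 and Cd200r1 lie above the upper line, and Vsir lies on the lower line.

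The position of the members in the genome was not used to choose them, but results of the arrays were known when they were chosen. Cd200r1, Btla and Cd200 lie on the same stretch of chromosome 16, where 9 protein-coding genes run from Cd200r1 to Cd200, and Btla and Cd200 are direct neighbours in the RefSeq gene order. Of the 5 genes of that stretch above the floor, Btla and Cd200 were at least 1.5-fold higher, a size reached by 3.85% of all genes. Cd200r1 also passed that size, but by values at or below background. Cd200r1, Btla and Cd200 are all chosen genes, and 2 of them bound the stretch, so this share follows from the choice and is a description only. The genes of the stretch above the floor that were not chosen did not reach that size. Slc35a5, a sugar transporter family gene, differed by -0.11, and Atg3, an autophagy enzyme that lies next to Btla, differed by 0.02. The receptor paralogs Cd200r4 and Cd200r3 were below the floor. Of the 5 genes on either side, those above the floor all lay on the Cd200r1 side, and they differed by -0.18 to 0.35. The genes beyond Cd200 had no value or were below the floor, so that flank was not measured.

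Ctla4 and Icos are also direct neighbours, on chromosome 1, with Cd28 beside Ctla4. Cd28, the main costimulatory receptor of naive T cells, read 1857 and 1498 units, a difference of -0.31. The 3 genes thus differed by -0.31, -0.34 and -0.33, which are nearly equal values. The genes on either side ran from -0.42 for Carf, which was below background, to 0.44 for Cyp20a1, so the neighbourhood as a whole did not share that value. Cd28 is also on the T cell marker list.

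**Figure D3:**
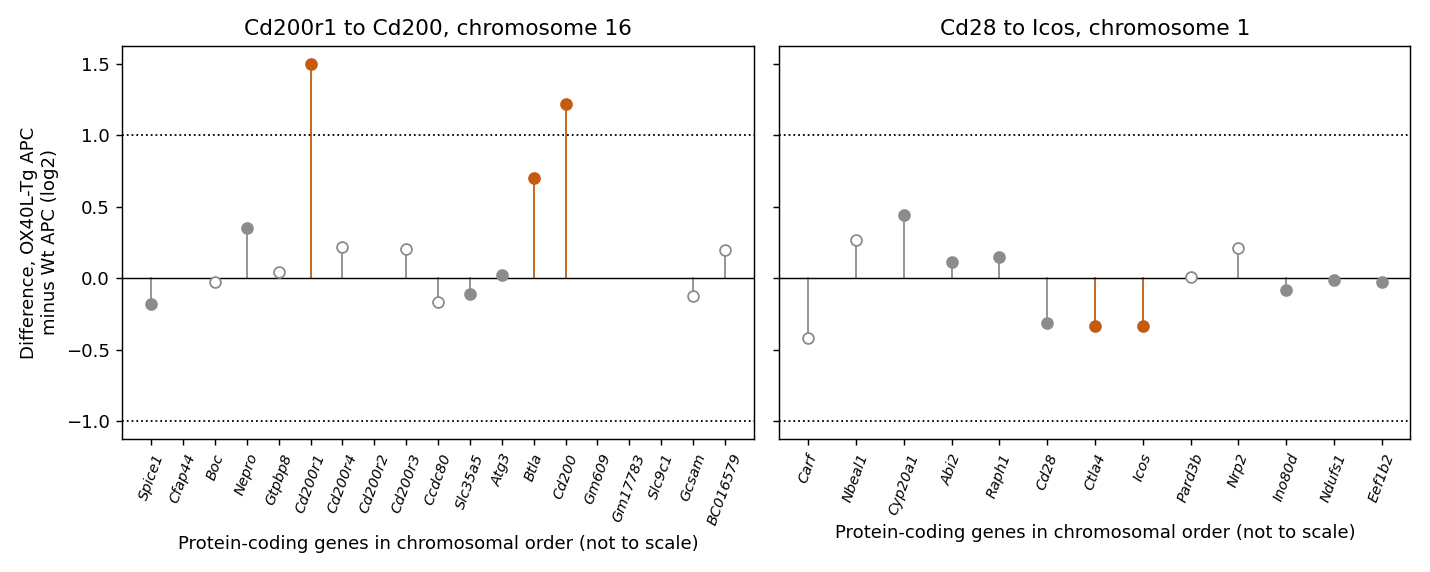
Difference between the arrays (log2) for protein-coding genes in chromosomal order, around Cd200r1 to Cd200 (left) and Cd28 to Icos (right), with 5 genes on either side; orange marks receptors described here, open points are below background on both arrays and a gene without a point had no value. Cd200r1, Btla and Cd200 stand above their neighbours, and Cd28, Ctla4 and Icos sit at nearly the same small negative value.

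Other receptors of the same kind differed little. Of 22 listed, 17 had a value and 10 were above the floor, of which 0 were at least 2-fold different, and the median was -0.10. With 1.56% and 1.17% of all genes past 2-fold in either direction, none among 10 is close to that background. Lower values of any size were seen in 9 of the 10, compared with 46.0% of all genes. Cd28, Cd5 and Cd2, the last of them higher, are also on the T cell marker list, so the 2 lists are not independent. Only 6 of the 10 were above background, and the lower values of Cd226, Lair1 and Ceacam1 were below it on both arrays. Cd5, also counted as lower, differed by -0.0075. Cd96, a receptor of the nectin-binding group, read 320 and 208 units, a difference of -0.62, and was the 1 gene past 1.5-fold. Cd160, which like BTLA binds HVEM, differed by -0.44, but its 4 probe sets ranged from -0.44 to 0.05. Cd28 differed by -0.31. Cd7 differed by -0.42 with both values below background.

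Of 21 ligands of these receptors, 19 had a value and 12 were above the floor, with a median of -0.14 and 0 at least 2-fold different. The ligands of CD28 and CTLA-4 diverged. Cd86 had 75.6 units with Wt APC against 119 with OX40L-Tg APC, a difference of 0.66, and 0.82 in its other probe set. Cd80 read 72.4 and 43.5 units in its main probe set, the latter below background. Set against the background level, that probe set was at least 1.52-fold lower. The 4 probe sets of Cd80 ranged from -1.09 to -0.13, so they shared the direction but not the size. Lgals3, which encodes galectin-3, a ligand of LAG-3, read 190 and 107 units, a difference of -0.82. Selplg, which encodes the selectin ligand PSGL-1, a binding partner of VISTA, differed by -0.57. Receptors and ligands did not move as pairs throughout. Vsir and Selplg were both lower, as were Lag3 and Lgals3. The MHC class II genes H2-Aa and H2-Ab1, whose product LAG-3 also binds, were higher by 0.51 and 0.23, unlike Lag3. Ctla4 differed by -0.34 beside 0.66 for Cd86, whereas Cd80 was lower as Ctla4 was. Pdcd1 differed by -0.53 beside 0.28 and 0.08 for its ligands Pdcd1lg2 and Cd274.

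Signalling proteins below these receptors had the median closest to 0 of the 4 lists. All 22 with a value, of 26 listed, were above the floor and background, 0 were at least 2-fold different, and the median was -0.0038. Of these 22, 2 passed 1.5-fold upward and 1 downward, where 3.85% and 3.36% of all genes did. Trat1, an adaptor of the T cell receptor complex that is also linked to the transport of CTLA-4, differed by 0.75. Dok2, the adaptor through which CD200R1 signals, read 231 and 353 units, a difference of 0.61. Fyn, a Src family kinase, differed by -0.67, and Pik3cd, the catalytic phosphatidylinositol 3-kinase subunit used by CD28 and ICOS, by -0.41.

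Regulators known to act on transcripts of these receptors held the largest differences of the 4 lists. Of 22 listed, 20 had a value and 17 were above the floor, with a median of -0.12. Of the 17, 2 passed 2-fold upward, against 1.56% of all genes above the floor, and 2 downward, against 1.17%. Batf, an AP-1 factor of activated T cells, had 519 units with Wt APC against 1664 with OX40L-Tg APC, a difference of 1.68. Egr2, a zinc finger factor induced by the T cell receptor, differed by 1.44. Eomes, the T-box factor found in exhausted and cytotoxic T cells, read 221 and 65.1 units, a difference of -1.77. Nr4a3, an orphan nuclear receptor that accompanies PD-1 and TIM-3 in exhausted cells, differed by -1.34, but its 3 probe sets ranged from -1.34 to -0.24.

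**Figure D4:**
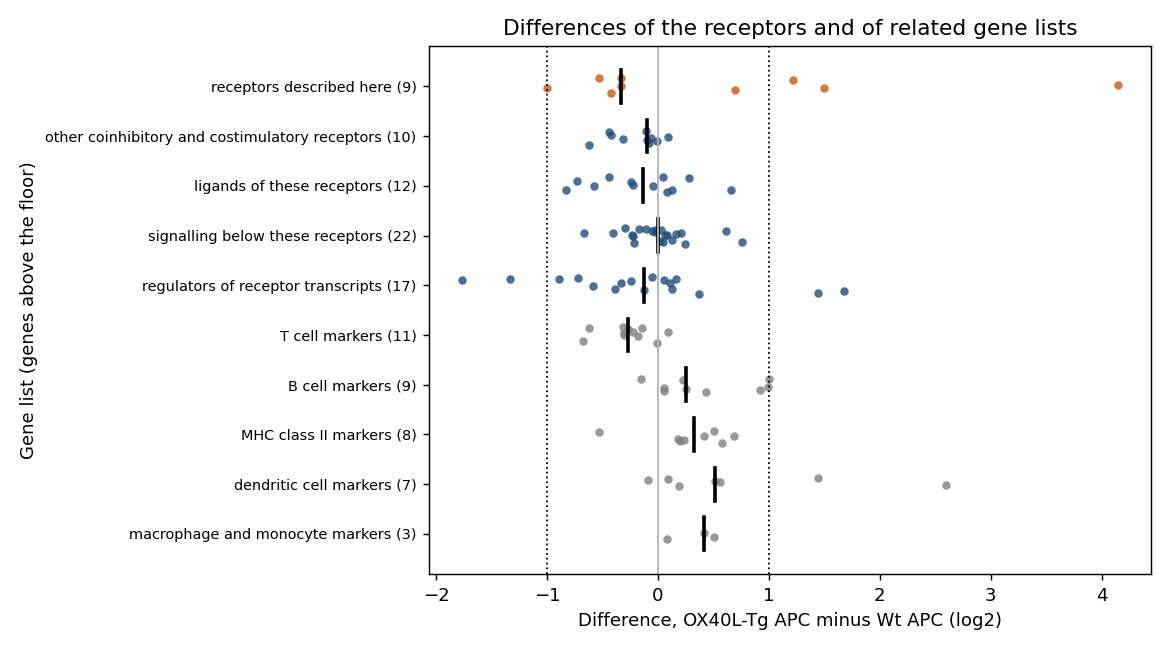
Difference between the arrays (log2) of each gene above the floor in the receptors described here (orange), 4 related lists (blue) and 5 marker lists (grey), with the number of genes in brackets, the median as a black bar and dotted lines at 2-fold. The receptors run from -1.0 to 4.15, the signalling list centres on 0, T cell markers lie mostly below 0 and B cell, MHC class II and dendritic cell markers mostly above.

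For each member at least 2-fold different, the genes with the nearest pair of log2 values on both arrays were identified. Distances are Euclidean, over 2 arrays only. For Lilrb4a they were Akr1c18, at 147 and 1383 units and a distance of 0.66, then Gzma, which encodes granzyme A, at 0.76, and Csf2, which encodes GM-CSF, at 0.95. The nearest gene to Lilrb4a was thus farther away than for the other members. The nearest to Cd200 were Jak2, a cytokine receptor kinase, at 603 and 1335 units and a distance of 0.08, Tnfaip3, which encodes the NF-kB inhibitor A20, also at 0.08, and Glipr2 at 0.25. Cd200r1 was nearest to Mapk12, Rab20 and Hc, all below background with Wt APC. Vsir was nearest to Arhgef18 at a distance of 0.05, Cpm at 0.09 and Tle4, a transcriptional corepressor, at 0.12.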

How the data were processed

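RNA of CD4 T cells from 2 conditions, 1 array each, was hybridised to HT MG-430 PM arrays. The authors deposited probe set intensities made with RMA, per the submitters' processing notes; its version and the arrays normalized together are not given in the sources used here. The intensities run from 4.69 to 14686 on a linear scale, so log2 was taken. RMA can compress low intensities, and 1 array per group leaves noise unmeasured, so differences of dim genes may be understated or overstated. Equalised arrays leave no trace of a change in total RNA. Of 45141 probe sets, 28898 had 1 symbol in the platform annotation, 551 had several and named no gene, and 15692 are unnamed here. Entrez numbers of 28689 were found in RefSeq (GRCm38.p6), which changed 0 symbols. A gene took its probe set with the highest mean.

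The members and gene lists were chosen with earlier results of these data known. Named genes were every member, up to 4 genes per related list with the largest difference, and the 3 nearest genes to each member at 2-fold. Genes named outside that rule are markers, genomic neighbours, the PD-1 ligands and the genes next to a printed count, chosen after their values were seen. Of the 10 members, 6 had a RefSeq promoter window; the columns used were both arrays. The number of arrays limits the precision. Python 3.11.15, numpy 2.4.6, pandas 2.3.3, statsmodels 0.14.6 and matplotlib 3.10.9 were used, and the gene table was tested on simulated data. Alternatives were another probe set rule, floor, pseudocount, scaling and fold size.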

Additional observations from a re-analysis of the deposited data

How the results depend on the processing

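Of 117 values recomputed under alternatives, 102 moved by less than 0.16 on the log2 scale (the median range between probe sets of a gene), or, for counts, by no more than 1.5 times, and 0 changed the sign of a member at 2-fold. The sign of each of the 10 members held in every alternative that gave it a value. Only Icos, Vsir and Cd200r1 have more than 1 probe set. For the other members these alternatives could hardly change a sign, so its stability there says little about the direction. The number of members at least 2-fold lower, 1 for Vsir, was 0 with the mean of all probe sets, 0 with log2(value + 16), and 0 with the probe set of the smallest difference, an alternative chosen after seeing the data; Vsir differed by -0.79, -0.91 and -0.58 there. The number at least 2-fold higher, 3, was 2 without shared probe sets, which leaves Lilrb4a without a value, and 2 with the floor at the 75th percentile, with log2(value + 16) and with the smallest difference, each of which lost Cd200r1. The median difference of the members, -0.33, was -0.013 with no floor, which adds Havcr2, and -0.17 with the smallest difference. The median of other receptors was -0.31 without shared probe sets, and that of the ligands 0.045 with the smallest difference. Probe sets counted as shared were all those with the suffix s, x or a. Cd6, whose only probe set has the suffix a and differed by -0.06, was therefore left out of that median. No paired analysis was possible because each group has 1 array, and no replicate could be left out. Signals near background limit Cd200r1, Pdcd1 and Havcr2.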
